A study of Mus musculus with 16 samples.

Results

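The mucins are large glycoproteins whose protein chains carry long stretches rich in serine and threonine, and these stretches are covered with O-linked glycans. Gel-forming mucins are secreted by goblet cells or glands and polymerise into mucus, and *Muc2* is the mucin that builds the intestinal mucus layer. Membrane-bound mucins stay in the apical membrane, where their extended outer parts form part of the glycocalyx. The genes described here were the gel-forming mucins *Muc2* and *Muc6* and the membrane-bound mucins *Muc1*, *Muc3*, *Muc4*, *Muc13* and *Muc20*, chosen by symbol. They are 7 of 45513 genes counted, 2 gel-forming and 5 membrane-bound.

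The data were 16 RNA-seq libraries from the small intestine of 8 mice, with 1 library of tdTom+ and 1 of tdTom- EpCAM+ live sorted cells from each mouse. The animals were Atoh1(WT)CreERT2 R26RtdTom mice, which carry a tamoxifen-inducible Cre recombinase downstream of the *Atoh1* coding sequence and a Cre-dependent tdTomato reporter at *Rosa26*. The study describes them as C57BL/6 mice of both sexes, 8 to 16 weeks old, homozygous for the Cre allele and, in lineage tracing, heterozygous for the reporter. Both fractions came from mice that had been given tamoxifen, at 1 mg per day for 3 days per the labels, the schedule that the study's methods give for the secretory signature. The label is made in cells that transcribe *Atoh1* and is kept by their progeny, so tdTom+ cells hold labelled secretory cells of several types and tdTom- cells are the unlabelled rest of the epithelium, not a pure type. There was no group without tamoxifen and no other genotype.

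Total counts ranged from 17116405 to 25323567 per library. Scaled to total counts alone, 3 counts corresponded to between 0.119 and 0.175 CPM (counts scaled to a common library size). The other CPM values were also TMM-normalised, and on that scale 3 counts in the tdTom+ library of mouse 3 were 0.191 CPM. All 8 goblet and all 8 Paneth markers were higher in tdTom+, and all 8 absorptive markers were lower, with log2 fold changes from -3.65 to -2.39. Enteroendocrine markers (8 of 8 tested) and tuft markers (7 of 7 tested) were also higher, with smaller medians of 1.66 and 1.86. The tuft marker *Gfi1b* had only 4 to 14 counts per tdTom- library. The study found Dclk1+ tuft cells unlabelled a day after a single tamoxifen dose, another schedule than that of these libraries. Of 8 stem cell markers 4 were higher and 0 lower (median 0.505), and of 3 tested stromal markers 1 was higher, *Vim* (23.4 against 2.30 CPM). Of 6 tested immune markers 5 were lower, with summed levels of 5.68 to 24.7 CPM in tdTom+ and 10.1 to 131 CPM in tdTom- libraries. Of all genes tested, 25.8% were higher and 30% were lower in tdTom+. In mouse 7 the summed absorptive markers were the lowest of each fraction (1560 and 14600 CPM in tdTom+ and tdTom-).

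The members lie at few places in the genome (GRCm38, coordinates of the deposited annotation). *Muc2* (ENSMUSG00000025515, chr7:141690340-141754693, plus strand) and *Muc6* (ENSMUSG00000048191, chr7:141633456-141655319, minus strand) are transcribed away from each other from start sites 35021 bases apart. *Muc4* (ENSMUSG00000079620, chr16:32735886-32782391, plus strand) and *Muc20* (ENSMUSG00000035638, chr16:32777419-32797435, minus strand) overlap end to end by 4973 bases, of which 627 are exonic in both. *Muc13* (ENSMUSG00000022824, chr16:33794037-33819934, plus strand) is on the same chromosome, *Muc1* (ENSMUSG00000042784) is at chr3:89229057-89233381 on the plus strand, and *Muc3* (ENSMUSG00000037390) is at chr5:137134922-137149322 on the minus strand. *Muc3a* (ENSMUSG00000094840, chr5:137208813-137212389, minus strand), not among the 7 but a neighbour of *Muc3*, has its start site 63067 bases from that of *Muc3*. No stretch of 50 bases, the read length, in the transcripts of these 8 genes also occurs in the transcripts of another gene. Mucin exons hold repeats, and 6.16% of such stretches in *Muc6*, 4.32% in *Muc4* and 3.05% in *Muc13* recur within their own transcripts. None recurs in the annotated transcripts of *Muc2*, *Muc3* or *Muc20*. The counted *Muc2* model has 7127 exonic bases and a longest intron of 40000 bases. Repeats outside its annotated exons would not have been seen. In *Muc4* a single exonic block of 6931 bases makes up 59% of the exonic length, and in *Muc6* one of 4329 bases makes up 46.2%, whereas the longest block of the counted *Muc2* model is 447 bases (6.27%).

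The promoters of the 3 members that passed the test below are shown because they moved in different directions. Each is the 250 bases before the RefSeq start site (GRCm38.p6) on the gene's strand. Capitals mark the E-boxes CAGCTG and CAGATG, the kind of site that basic helix-loop-helix factors such as *Atoh1* bind, and TTTATG, a Cdx-type site, in either orientation. The windows are chr7:141690090-141690339 for *Muc2*, chr16:33793787-33794036 for the first of 2 *Muc13* start sites and chr5:137166047-137166296 for *Muc3*.
Muc2: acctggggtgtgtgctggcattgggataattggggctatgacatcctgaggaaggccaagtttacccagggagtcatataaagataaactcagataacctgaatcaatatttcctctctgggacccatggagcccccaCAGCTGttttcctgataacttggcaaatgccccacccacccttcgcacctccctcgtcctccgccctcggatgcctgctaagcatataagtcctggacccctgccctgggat
Muc13: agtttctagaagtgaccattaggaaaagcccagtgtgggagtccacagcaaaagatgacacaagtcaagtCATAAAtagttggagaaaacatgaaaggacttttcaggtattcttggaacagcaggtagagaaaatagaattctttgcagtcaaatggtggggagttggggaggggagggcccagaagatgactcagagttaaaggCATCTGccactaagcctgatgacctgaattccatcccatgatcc
Muc3: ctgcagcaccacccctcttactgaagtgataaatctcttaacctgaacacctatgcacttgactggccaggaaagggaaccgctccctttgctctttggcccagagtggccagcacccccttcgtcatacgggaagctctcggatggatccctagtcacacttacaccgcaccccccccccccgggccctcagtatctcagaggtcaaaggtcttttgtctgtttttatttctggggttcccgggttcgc

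The *Muc2* window held 1 CAGCTG, the first *Muc13* window held 1 CAGATG and 1 TTTATG, and the *Muc3* window held none of these. The window of the second *Muc13* start site (chr16:33794239-33794488) held none either. Among the other members, the *Muc1* window held 1 CAGATG, and none of these letters were found in the windows of *Muc4*, *Muc6* and *Muc20*. Of 32851 promoter windows of this length, 13.0% held CAGCTG, 14.4% held CAGATG, 10.8% held TTTATG and 25.5% held either E-box. The *Muc3* window starts from a RefSeq start site that is 16724 bases upstream of the one in the deposited annotation. The deposited *Muc3* model has only 1943 exonic bases, so reads from further upstream exons were not in its counts.

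Which mucins separate labelled secretory cells from the rest of the epithelium was asked by comparing the 2 fractions of each mouse. *Muc2* was about 180 times higher in tdTom+ cells, *Muc13* was slightly higher and *Muc3* was lower. *Muc4* did not pass the test, and *Muc6*, *Muc1* and *Muc20* had at most 10 counts in any library. Of the 4 members above the filter on low counts, 3 passed the test, 2 higher and 1 lower in tdTom+. Of all 15323 genes tested, 55.8% passed (25.8% higher, 30% lower), and with 4 members nothing is read from their share. The balance of directions turned without mouse 3 (4529 higher, 3626 lower) and with at least 10 counts in every library (4448 higher, 3356 lower).

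*Muc2*, the mucin of the intestinal gel, ranged from 8069 to 21180 CPM in tdTom+ libraries (median 13480) and from 56.2 to 94.7 CPM in tdTom- libraries (median 66.7). The lowest tdTom+ library was far above the highest tdTom- library, a separation found in one direction or the other for 31.6% of genes tested. The log2 fold change was 7.49 (SE 0.17, edgeR quasi-likelihood test, adjusted p = 3.884e-13), a fold of 179.5 with a 95% interval from 138.9 to 231.9, and it was higher in 8 of 8 mice. Within single mice the log2 ratio ran from 7.14 to 8.37, the largest being in mouse 3. *Muc2* took 1.29% ± 0.404 of the counts of a tdTom+ library and 0.00729% ± 0.0014 of those of a tdTom- library (SD over 8 libraries). In these bulk samples, fewer cells of a type and less RNA per cell cannot be told apart.

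The *Muc2* level left in tdTom- cells was 0.534% of the mean tdTom+ level, and from 0.302% to 0.709% within mice. Over the 8 goblet markers the same percentage ranged from 0.556% to 1.397%, and over the 8 Paneth markers from 0.480% to 1.28%. Summed goblet markers ranged from 120000 to 243000 CPM in tdTom+ and from 898 to 1420 CPM in tdTom- libraries, and none was at 0 in either fraction. What part goblet cells in the tdTom- fraction had in these levels was not tested.

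*Muc6*, the gel-forming mucin of gastric and Brunner's glands, had 3 to 6 counts in each tdTom+ library (median 4). In tdTom- it had 1 count in mouse 4 and none in the other 7 libraries. The fractions did not overlap, but every library lay close to the limit of 3 counts. All counts together were 34 against 1, a ratio of 34.4 after scaling with a 95% counting interval from 5.78 to 1400. It was higher in 8 of 8 mice (exact two-sided sign-flip p = 0.00781, the smallest that 8 mice can give). In edgeR without the filter on low counts, where 34.1% of 27852 genes passed, the adjusted p was 0.000104. Among genes with any count, 8.77% had all tdTom+ values above all tdTom- values. The intervals of counts given here cover counting error only.

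Other genes of gastric or Brunner's glands were at low levels, some of them above that of *Muc6*. The trefoil peptide gene *Tff2*, usually made together with *Muc6*, had 1 to 8 counts per tdTom+ library and 0 in every tdTom- library. Of the 10 gastric and Brunner's gland markers, 5 were at 0 in all tdTom- libraries and none was at 0 in all tdTom+ libraries. Their summed level was 11.7 to 29.2 CPM in tdTom+ and 3.47 to 10.6 CPM in tdTom-. Most of it came from *Gkn3*, *Pgc* and *Gif*, with means of 8.19, 4.69 and 3.04 CPM in tdTom+, where *Muc6* averaged 0.212 CPM. *Gkn3*, the largest, averaged 5.29 CPM in tdTom-. Whether such cells contributed the *Muc6* counts was not tested.

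**Figure D1:**
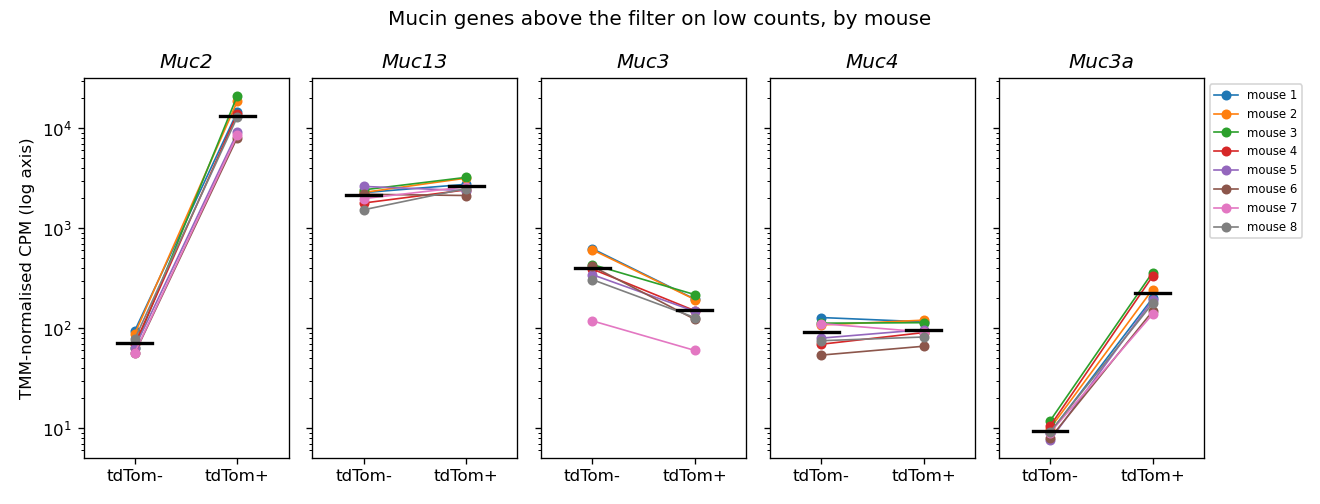
TMM-normalised CPM (log axis) of the 4 members above the filter and of *Muc3a* in the tdTom- and tdTom+ library of each of 8 mice, joined by a line per mouse, with black bars for the means. *Muc2* rises from 56.2-94.7 to 8069-21180 CPM, *Muc13* is higher in 6 of 8 mice, *Muc4* overlaps between fractions, *Muc3* falls in every mouse with mouse 7 lowest in both fractions, and *Muc3a* rises.

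*Muc13* had the highest level per exon length of the membrane-bound mucins in both fractions. It ranged from 2125 to 3227 CPM in tdTom+ (median 2543) and from 1530 to 2618 CPM in tdTom- libraries (median 2228). The ranges overlapped, and tdTom+ was higher in 6 of 8 mice, mice 5 and 6 being the exceptions. The log2 fold change was 0.32 (SE 0.094, edgeR adjusted p = 0.009765), a fold of 1.24 with a 95% interval from 1.08 to 1.43. This call lay just inside the threshold of 0.01 and was lost without the replicate block (adjusted p = 0.03495), with relative log expression factors (adjusted p = 0.01227) or total counts (adjusted p = 0.02997), and when any of mice 1, 2, 4, 7 or 8 was left out.

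*Muc3*, a membrane-bound mucin of the enterocyte brush border, was the member that fell. It ranged from 60.0 to 216.8 CPM in tdTom+ (median 148.6) and from 118.5 to 624 CPM in tdTom- libraries (median 403.2). The ranges overlapped through mouse 7, whose tdTom- library at 118.5 CPM was the only one below 306.1 CPM. Within each of the 8 mice, tdTom- was the higher fraction. The log2 fold change was -1.37 (SE 0.094, edgeR adjusted p = 1.879e-08), and tdTom- was 2.58 times higher. Without mouse 7 it was -1.42 (adjusted p = 8.522e-09). The 8 absorptive markers were all lower in tdTom+ as well, at 1560 to 6020 CPM summed against 14600 to 38300 CPM, none at 0, and how far the share of absorptive cells sets the *Muc3* level was not tested.

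*Muc4*, a membrane-bound mucin with EGF-like domains that can associate with *Erbb2*, ranged from 66.1 to 120.5 CPM in tdTom+ (median 94.3) and from 53.9 to 128 CPM in tdTom- libraries (median 93.8). The fractions covered nearly the same range. The log2 fold change was 0.10 (SE 0.073, edgeR adjusted p = 0.2282), with 6 of 8 mice higher in tdTom+. The 95% interval of the fold was 0.963 to 1.20.

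*Muc1*, a widely expressed epithelial mucin whose cytoplasmic tail takes part in signalling, had 2 to 10 counts in tdTom+ (median 4) and 0 to 8 counts in tdTom- libraries (median 1.5). Mouse 7 had the most in both fractions. Totals were 38 and 19 counts, a ratio of 2.03 with a 95% counting interval from 1.14 to 3.72. It was higher in tdTom+ in 7 of 8 mice (exact two-sided sign-flip p = 0.0156), but edgeR without the filter gave an adjusted p of 0.0838.

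*Muc20*, a membrane-bound mucin that binds the receptor *Met*, had 0 to 4 counts in tdTom+ (median 2.5) and 0 to 3 counts in tdTom- libraries (median 1). The totals of 17 and 12 counts had a ratio of 1.44 with a 95% counting interval from 0.646 to 3.29 (exact two-sided sign-flip p = 0.172), so a difference was not detectable at this depth. *Muc20* reached at most 0.203% of the *Muc4* count of the same library, although the genes share 627 exonic bases on opposite strands. Reads were counted by strand.

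**Figure D2:**
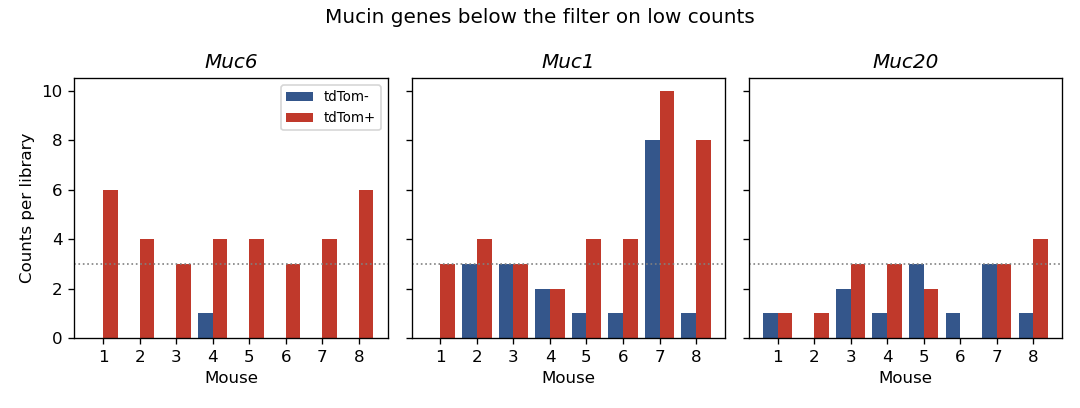
Raw counts per library of the 3 members below the filter, with tdTom- in blue and tdTom+ in red for each mouse and a dotted line at 3 counts. *Muc6* has 3 to 6 counts in tdTom+ and a single count in tdTom-, while the fractions overlap for *Muc1* and *Muc20*.

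*Muc3a* moved in the opposite direction to its neighbour *Muc3*. It ranged from 138.0 to 360.7 CPM in tdTom+ (median 195.2) and from 7.58 to 11.9 CPM in tdTom- libraries (median 9.10), with no overlap. The log2 fold change was 4.51 (SE 0.11, edgeR adjusted p = 1.142e-12), higher in 8 of 8 mice. The annotated *Muc3a* transcripts share no 50-base stretch with those of *Muc3*. *Muc5ac* had at most 2 counts and *Muc5b* at most 1 count in any library, and *Muc19* and *Muc15* were at 0 in all 16. At this depth that allows up to between 0.119 and 0.175 CPM of total counts, before TMM scaling. *Muc12*, *Muc16*, *Muc17* and *Muc21* were not matched by symbol and were not analysed here.

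Differences between mucins within a mouse were compared after the data had been seen, over 7 pairs made of the 4 members above the filter and the pair of *Muc3a* with *Muc3*. The log2 ratio of tdTom+ to tdTom- was higher for *Muc2* than for *Muc13* by 7.17 ± 0.387, than for *Muc4* by 7.38 ± 0.473 and than for *Muc3* by 8.85 ± 0.432 (mean ± SD over 8 mice). It was lower for *Muc3* than for *Muc4* (-1.47 ± 0.439) and than for *Muc13* (-1.68 ± 0.358), and higher for *Muc3a* than for *Muc3* by 5.86 ± 0.465. Each of these 6 differences had the same sign in 8 of 8 mice (exact two-sided sign-flip p = 0.00781, adjusted over the 7 pairs 0.00911). Since the ratios had been seen, these p values record only the shared sign and are no independent support. *Muc4* and *Muc13* differed by -0.21 ± 0.406, with a range over mice from -0.668 to 0.42 (exact sign-flip p = 0.180, adjusted 0.180).

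The mean log2 ratio of the 2 gel-forming members exceeded that of the 5 membrane-bound members by 4.52 ± 0.254 (SD over 8 mice), and by 4.18 to 4.92 in single mice. This mean includes *Muc6*, *Muc1* and *Muc20*, whose ratios are pulled towards 0 by the prior count of 2. With the 4 members above the filter, an alternative added after the data were seen, *Muc2* exceeded the mean of *Muc3*, *Muc4* and *Muc13* by 7.80 ± 0.364. No p is given for either value, since the members were chosen with results known.

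**Figure D3:**
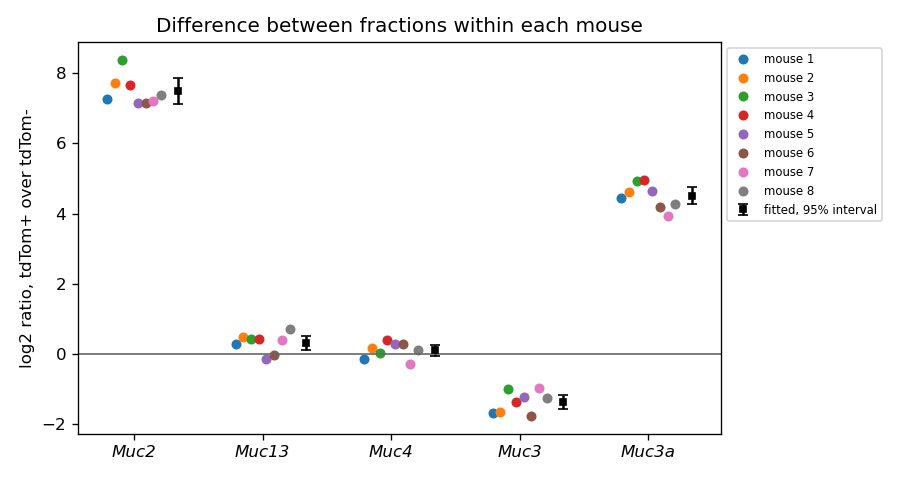
log2 ratio of tdTom+ over tdTom- within each of 8 mice (coloured points, from log2 CPM to which a prior count of 2 was added) and the fitted log2 fold change with its 95% interval (black). *Muc2* lies between 7.14 and 8.37 and *Muc3a* between 3.92 and 4.96, *Muc13* and *Muc4* straddle 0, and *Muc3* lies below 0 in every mouse.

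Levels of different mucins were compared per kilobase (kb) of exon. In tdTom+ the order was *Muc2* at 1880 CPM per kb, *Muc13* at 870 CPM per kb, *Muc3a* at 118 CPM per kb, *Muc3* at 78.1 CPM per kb and *Muc4* at 8.26 CPM per kb. Their ranges did not overlap between neighbours except for *Muc3a* and *Muc3*, of which *Muc3a* was the higher in all 8 libraries. In tdTom- the order was *Muc13* at 702 CPM per kb, *Muc3* at 208 CPM per kb, *Muc2* at 10 CPM per kb, *Muc4* at 7.84 CPM per kb and *Muc3a* at 4.97 CPM per kb. There the ranges of *Muc2* and *Muc4* overlapped, with *Muc2* above *Muc4* in 6 of 8 libraries, and those of *Muc4* and *Muc3a* overlapped as well. *Muc1*, *Muc20* and *Muc6* were below 0.22 CPM per kb in every library and stood below the other mucins without overlap in tdTom+ and in tdTom-. Among these 3 the ranges of neighbours in the order overlapped. In tdTom+ *Muc1* (0.0386 to 0.214 CPM per kb) did not overlap *Muc6* (0.0131 to 0.0357 CPM per kb). *Muc1* was above *Muc20* in all 8 tdTom+ libraries and in 6 of 8 tdTom- libraries. The order rests on the deposited gene lengths. The effect of the short *Muc3* model on its place was not tested, nor was that of any *Muc2* sequence missing from its model.

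Of the transcripts of the 7 mucins per length, *Muc2* made up 65.0% ± 5.42 in tdTom+ (57.3% to 71.5%) and 1.10% ± 0.263 in tdTom- (SD over 8 libraries). *Muc13* made up 31.9% ± 5.46 in tdTom+ and 76.1% ± 6.81 in tdTom-. *Muc3* made up 2.76% ± 0.652 in tdTom+ and 22.0% ± 6.83 in tdTom-, where its lowest share, 8.36%, was that of mouse 7. The mucin with the highest share was *Muc2* in every tdTom+ library and *Muc13* in every tdTom- library. Without division by length, *Muc2* took 81.3% and 2.70%. The shares per length rest on the deposited gene lengths too.

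**Figure D4:**
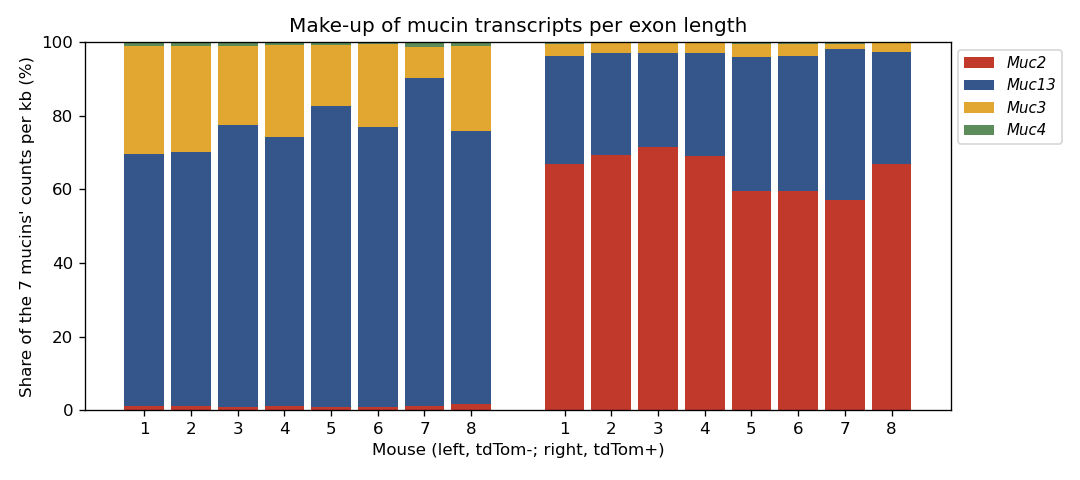
Share (%) of each mucin in the summed counts per kb of the 7 mucins, one bar per library with mice 1 to 8 of tdTom- on the left and of tdTom+ on the right; *Muc1*, *Muc6* and *Muc20* are too small to see. *Muc2* fills 57.3% to 71.5% of each tdTom+ bar and *Muc13* 68.4% to 89.2% of each tdTom- bar.

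Genes whose levels followed those of a member within the fractions were listed by Pearson correlation over the 16 libraries, after the mean of each fraction was subtracted, among 9415 genes. This is a description, since the libraries share mice and depth. Closest to *Muc2* were *9530053A07Rik* (r = 0.948) and the goblet genes *Clca1* (r = 0.928) and *Fcgbp* (r = 0.919). Among the closest to *Muc3* were *Dgat2*, an enzyme of triglyceride synthesis (r = 0.948), and *1810055G02Rik* (r = 0.945). *Ctnnd1* (r = 0.920), *N4bp1* (r = 0.907) and *Tmc5* (r = 0.905) were closest to *Muc13*, and *Arfgef3* (r = 0.851), *Gm23935* (r = 0.838) and *Smox* (r = 0.837) to *Muc4*.

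Mucin proteins become functional through glycosylation, and genes of that pathway were followed in the same fit. Of 47 genes of mucin-type O-glycosylation, 36 were tested, of which 25 were higher, 4 were lower and 7 did not pass. Their median log2 fold change was 1.19, beside 0.02 over all genes tested, of which 25.8% were higher and 30% were lower. Some of the 36 passed the filter on low counts through the fraction in which they were higher, as given below. The Galnt enzymes add the first sugar, N-acetylgalactosamine, and 7 of the 10 tested were higher and none was lower. *Galnt5* rose from 1.01 to 88.5 CPM (log2 fold change 6.44), *Galnt12* from 8.97 to 197.1 CPM (4.48) and *Galnt3* from 19.6 to 106.9 CPM (2.43), while *Galnt4*, *Galnt10* and *Galnt6* rose by 1.65, 1.42 and 0.50.

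The core enzymes build on that sugar. *Gcnt3*, which makes branched core structures, rose from 10.8 to 409.8 CPM (log2 fold change 5.28, SE 0.11). *C1galt1*, which makes core 1, rose by 1.86 and its chaperone *C1galt1c1* by 2.11, and *Gcnt1* rose by 1.60. *Gcnt4* fell, with a log2 fold change of -1.64. *B3gnt6*, which makes core 3, averaged 0.974 CPM in labelled and 1.34 CPM in unlabelled cells (log2 fold change -0.45, adjusted p = 0.1667). Of the enzymes that extend the chains, 4 of 6 tested were higher and 1 was lower, beside 25.8% and 30% of all genes tested. The log2 fold changes were 2.06 for *B3gnt7*, 1.30 for *B3galt5*, 0.46 for *B3gnt3*, 0.32 for *B4galt4* and -0.36 for *B4galt3*.

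The capping enzymes end the chains with fucose, sialic acid or other sugars. Of these 14 were tested, 10 were higher and 2 were lower, beside 25.8% and 30% of all genes tested. *A4gnt*, which adds the terminal N-acetylglucosamine that is typical of *Muc6*-type gland mucins, had 7.71 to 25.3 CPM in tdTom+ and 0.046 to 0.261 CPM in tdTom- libraries. Its log2 fold change was 6.86 (SE 0.18, edgeR adjusted p = 1.65e-12), in libraries in which *Muc6* itself was at 0.123 to 0.334 CPM. The tdTom- libraries held only 1 to 5 counts of *A4gnt*. It passed the filter through its tdTom+ counts, and the size of its fold rests on few tdTom- counts. The fucosyltransferase gene *Fut1*, with 1 to 7 counts per tdTom- library, rose by 4.63. The sialyltransferase gene *St6galnac4*, with 4 to 20 counts per tdTom- library, rose by 3.59. Both passed the filter through their tdTom+ counts, and the size of their folds rests on few tdTom- counts. The lowest log2 fold changes past the threshold were those of *St3gal4*, from 1350 CPM in tdTom- to 299.9 CPM in tdTom+ (log2 fold change -2.18), *St6galnac1* (-1.27) and *St6galnac2* (0.45). *St6galnac1* had 3 to 16 counts per tdTom+ library and passed the filter through its tdTom- counts. The numbers of capping genes called include *A4gnt*, *Fut1*, *St6galnac4* and *St6galnac1*.

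**Figure D5:**
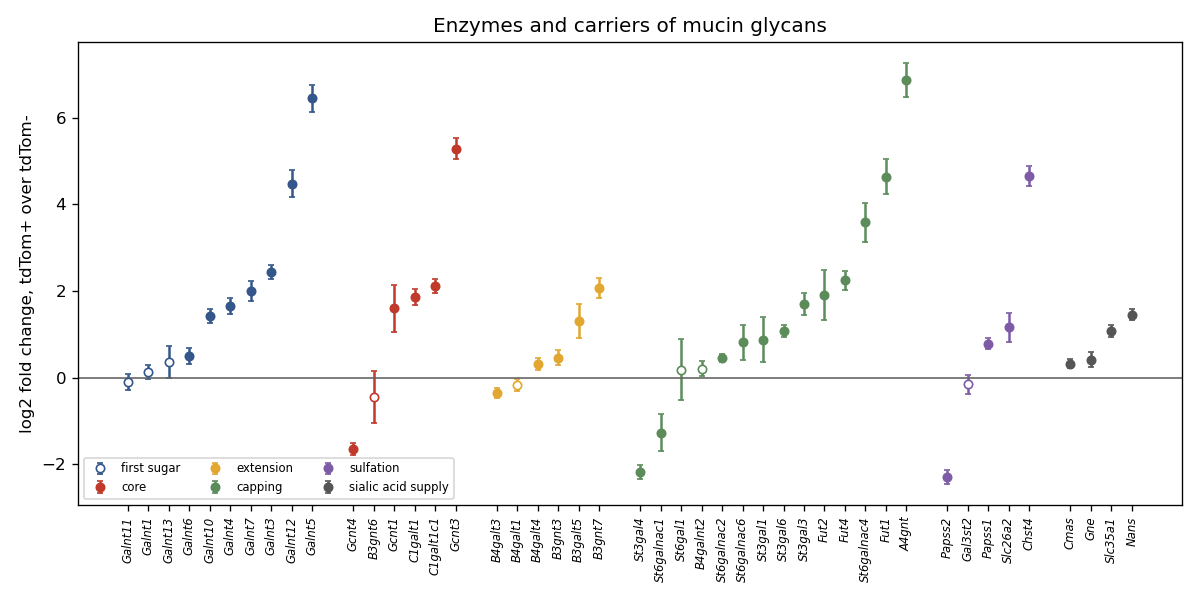
Fitted log2 fold change of tdTom+ over tdTom- with its 95% interval for the tested genes of mucin O-glycosylation, sulfation and sialic acid supply, coloured by step and ordered by size within a step; filled points passed an adjusted p of 0.01. Most points lie above 0, *A4gnt* and *Galnt5* highest at 6.86 and 6.44, and *Papss2* and *St3gal4* lowest at -2.28 and -2.18.

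Of 6 sulfation genes, 5 were tested, 3 were higher and 1 was lower, beside 25.8% and 30% of all genes tested. *Chst4*, a sulfotransferase that acts on N-acetylglucosamine, rose from 6.37 to 162.7 CPM (log2 fold change 4.65), the sulfate transporter gene *Slc26a2* rose by 1.16 and *Papss1*, which makes the sulfate donor, by 0.78. *Papss2*, its paralog, fell from 927.9 to 192.7 CPM (-2.28). All 4 genes of sialic acid supply rose, *Nans* by 1.45, *Slc35a1* by 1.08, *Gne* by 0.42 and *Cmas* by 0.32.

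The 6 genes of gel assembly and mucus companions were all higher, with a median log2 fold change of 7.22. Each of them is also among the goblet markers above, so this is not a separate result. *Clca1* (7.45), *Zg16* (7.43), *Tff3* (7.24) and *Fcgbp* (7.19), whose proteins are secreted with *Muc2*, rose, beside 7.49 for *Muc2*, and the endoplasmic reticulum genes *Ern2* and *Agr2*, needed for *Muc2* folding, rose by 6.18 each. All 10 transcription factor genes of secretory cells listed were higher (median 4.97), while 25.8% of all genes tested were higher. *Spdef*, a goblet cell factor, rose by 6.74, *Atoh1*, from whose locus the label is driven, by 6.43 and *Gfi1* by 5.49. *Atoh1* counts among the 10, but the cells were sorted on that label, so its rise is not a separate result. *Gfi1*, with 7 to 22 counts per tdTom- library, passed the filter through its tdTom+ counts. *Foxa1* (2.18), *Klf4* (1.404) and *Xbp1* (1.12) rose least.

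Among 10 partners of membrane-bound mucins, all tested, 3 were higher and 5 were lower (median -0.14), beside 25.8% and 30% of all genes tested. *Gopc*, a Golgi protein with a PDZ domain, rose by 1.33, the receptor gene *Egfr* by 1.24 and the galectin gene *Lgals9* by 0.21, a change near the threshold (adjusted p = 0.008471) that was no longer called without the replicate block or without mouse 1, 2, 4, 5, 6 or 8. *Pdzk1*, a brush border scaffold, fell from 264.2 to 26.1 CPM (log2 fold change -3.41), and the receptor genes *Erbb2* and *Erbb3* fell by 0.81 and 0.76. All 5 proteases that cut or shed mucins passed, 2 higher and 3 lower, while 55.8% of all genes tested passed. The meprin genes *Mep1b* (-2.87) and *Mep1a* (-2.46), of which the first releases *Muc2* mucus in the small intestine, and *Adam17* (-0.18) were lower, and *Mmp14* (1.57) and *Adam10* (0.23) were higher. The absorptive markers moved in the same direction as *Pdzk1* and the meprins, with 8 of 8 lower, and their part in these values was not tested.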

How the data were processed

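RNA was measured in 16 libraries of EpCAM+ tdTom+ or tdTom- small intestinal cells from 8 mice (TruSeq Stranded mRNA). The authors aligned single-end reads to GRCm38 with TopHat2 (2.1.1 per the processing notes) and deposited raw counts per Ensembl gene. The file headers give featureCounts 1.5.0-p1 and the processing notes Subread 1.5.2. Primary alignments on exons were counted on the reverse strand, without a filter that removes multi-mapping reads. Symbols came from GENCODE M21 (44585 of 45513 identifiers).

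Counts were analysed in R 4.3.3 with edgeR 4.0.16. After filterByExpr (15323 genes) and TMM scaling, the fractions were compared in the quasi-likelihood test with the mouse as a replicate block, Benjamini-Hochberg adjusted over all genes tested, with a threshold of 0.01. Pairing follows the series design, in which each mouse gave both fractions. Deviations of same-mouse libraries correlated at 0.426 on average (0.245 to 0.634, different mice -0.0569), and all 8 mice matched their own number best. CPM are TMM-normalised. Members below the filter were compared by exact sign-flip tests on CPM. On simulated counts for the comparison of the fractions (15323 genes), 97% of genes changed by a log2 of 1 and 96% of those changed by 2 were recovered. That simulation left 15022 genes unchanged, whereas 55.8% of genes tested passed in the data. It therefore does not speak to scaling between such different fractions, nor to changes as small as that of *Muc13*. Alternatives used DESeq2 1.42.0, limma 3.58.1, other scalings, filters, thresholds, thinning and leaving out each mouse.

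The members and lists were chosen with earlier results of these data known. Genes named were the mucins, all genes past the threshold of lists of up to 6, and otherwise the 3 largest and 3 smallest changes past it, plus those whose role is described. One gene that the rule on likeness names is not reported here. Protein sequences were not used here.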

Additional observations from a re-analysis of the deposited data

Results flagged for a closer look

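In 18 sets of 8 values (members and *Muc3a* in each fraction, and the *Muc2* share), 4 held a library whose gap to the next exceeded Dixon's 95% limit, where chance flags about 1 in 20, or 0.9 sets. *Muc3* in mouse 7 stood below the other mice in both fractions, at a log2 CPM of 5.91 in tdTom+ (next lowest 6.94) and 6.89 in tdTom- (next lowest 8.26). The summed absorptive markers of mouse 7 were the lowest of each fraction too, and its summed immune markers in tdTom- were 120 CPM, with 131 CPM in mouse 8 and 10.1 to 34.4 CPM in the others. Their part in the *Muc3* value was not tested.

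*Muc6* in the tdTom- library of mouse 4 was at 0.0503 CPM, which is 1 count, and at 0 in the other 7. *Muc1* in the tdTom- library of mouse 7 was at 0.365 CPM, or 8 counts, with 0.163 CPM in the next library. Both values rest on few counts.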

How the results depend on the processing

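*Muc2* and *Muc3* kept their direction and their call, and *Muc4* its direction and no call, under every alternative run (scaling, tool, filter, thinning, threshold, no replicate block, each mouse left out). *Muc2* ranged from 7.45 to 7.54, *Muc3* from -1.42 to -1.31 and *Muc4* from 0.06 to 0.22 with a mouse left out. *Muc13* was no longer called without the replicate block (log2 fold change 0.3095), in DESeq2 with no replicate block (0.3165), with RLE factors (0.3233), total counts (0.2504) or TMM without the 10 most counted genes (0.3121), with a minimum size of 1 on the log2 scale (0.3152), or without mouse 1, 2, 4, 7 or 8 (0.2612 to 0.4067 over all mice). The replicate block changed no other member's call.

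All genes called numbered 3498 (1740 higher, 1758 lower) at that minimum size, against 8556, and 7911 to 8923 with a mouse left out. It left 4 sulfation and sialic acid genes higher (7 in the main test) and 1 partner lower (5). With at least 10 counts in every library, 5 partners were higher (3), and 2 were higher without the replicate block, in DESeq2 with no replicate block, with total counts, without the filter, at the minimum size, or without mouse 1, 2, 4, 5, 6 or 8, *Lgals9* being the one lost. Proteases called higher were 1 rather than 2 without the replicate block, with total counts, without the filter, at the minimum size, or without mouse 1, 2, 4 or 8 (range 1 to 2), *Adam10* (adjusted p = 0.008364) being the one lost. The median of all genes moved to 0.12 without mouse 3 or with at least 10 counts in every library (0.02 otherwise in the main test), and the small values of *Muc13* and *Muc4* should be read beside that shift.

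The gel-forming minus membrane-bound difference, with no test, was 5.668 and 5.767 in DESeq2 with and with no replicate block, 5.693 as fitted without the filter and 7.804 for the 4 members above it, and 4.47 to 4.57 with a mouse left out. The cause was not tested, but *Muc6*, *Muc1* and *Muc20* rest on at most 10 counts a library. The *Muc2* share was 81.28% and 2.699% when not divided by length. Depth limits the members below the filter, for which no alternative turned the direction.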

Other observations

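How the membrane-bound mucins varied with *Muc2* from mouse to mouse was described within each fraction. Within tdTom+ libraries, the correlation of log2 CPM with *Muc2* over the 8 mice was 0.850 for *Muc13*, 0.819 for *Muc3a*, 0.759 for *Muc3* and 0.733 for *Muc4*. Within tdTom- libraries it was -0.0849 for *Muc13*, 0.196 for *Muc3a*, 0.635 for *Muc3* and 0.469 for *Muc4*. These are descriptions over 8 libraries each that share scaling and sort, with no test of the difference between the fractions or between the genes.

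*Gif*, the gene of gastric intrinsic factor, was at 1.05 to 5.16 CPM in tdTom+ and 0 to 0.137 CPM in tdTom- libraries (log2 fold change 6.65, SE 0.40, edgeR adjusted p = 4.604e-09). With 0 to 3 counts per tdTom- library, it passed the filter through its tdTom+ counts, and its fold rests on few counts. *Pgc*, a gastric pepsinogen gene, was at 3.09 to 6.80 CPM and 0.776 to 2.87 CPM (log2 fold change 1.402). Both are from the list of gastric and Brunner's gland markers, of which 3 of the 4 tested were higher and *Muc5ac* was near 0. The other gene called higher, *Gkn3* (log2 fold change 0.62, edgeR adjusted p = 0.009818), lay just inside the threshold of 0.01. It was higher in tdTom+ in 6 of 8 mice. Of all genes tested, 25.8% were higher.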
